A study of Mus musculus with 32 samples.

Results

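Fibrinogen, the soluble precursor of fibrin, is assembled from Aα, Bβ and γ chains, and the genes *Fga*, *Fgb* and *Fgg* that encode them were followed here in mouse kidney cortex. These 3 genes were taken by symbol from the 32544 genes of the count table and were chosen by their measured difference between Alport and control kidneys in an earlier pass over the same data. Their levels and fold changes are therefore given as a description with errors and without p-values. Bulk RNA-Seq was done on cortex taken at 25 weeks of age from C57BL/6J mice with the *Col4a3tm1Dec* allele, a model of Alport syndrome, in which a chain of the collagen IV of the glomerular basement membrane is lost. The controls were *Col4a3*+/-, so every mouse carried at least 1 mutant allele, and the Alport mice were *Col4a3*-/-. Males and females of both genotypes received a purified diet alone (vehicle) or with nicotinamide riboside (NR, an NAD+ precursor) at 0.5% w/w from 10 weeks of age, and each of the 8 groups had 4 mice. Each library is 1 mouse, and the labels give no litter, date or batch.

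The Aα and Bβ chains carry the short peptides that thrombin removes to start fibrin polymerization, and the γ chain carries sites for platelet and leukocyte integrins. Hepatocytes are the main source of the plasma protein. It is an acute-phase protein whose transcription in the liver rises with IL-6 family cytokines through STAT3, with C/EBP factors acting at the promoters. Fibrinogen chain expression outside the liver is known in injured epithelia, the kidney tubule among them.

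The libraries held 16621944–27778797 counts (median 22071395), and the 3 chains together took 683–14796 counts per mouse. Counts were expressed as CPM on library sizes scaled by the trimmed mean of M values (TMM). *Col4a3*, whose mutant allele still gives reads, was 48.8–83.2 CPM in the 16 Alport mice and 59.3–201 CPM in the 16 controls. Overlap with the Alport range came from replicates 1 and 3 of the NR-treated control males (59.3 and 75.2 CPM). The difference between *Col4a3* and its partner chain *Col4a4* did separate the genotypes, with −1.77 to −1.28 log2 CPM in Alport and −0.90 to −0.28 in control mice.

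The chains lie side by side on chromosome 3 of GRCm38 (mm10, the build named in the submitters' notes). In GENCODE M21, *Fgg* (ENSMUSG00000033860.13) spans 83007724–83015049 and *Fga* (ENSMUSG00000028001.16) spans 83026076–83033627, both on the plus strand, and *Fgb* (ENSMUSG00000033831.5) spans 83040141–83049863 on the minus strand. Gaps of 11026 bases between *Fgg* and *Fga* and of 6513 bases between *Fga* and *Fgb* hold no other protein-coding gene, so *Fga* and *Fgb* point towards each other. The stretches just before the annotated starts are shown because the 3 mRNAs moved together. They were cut from the promoter table of RefSeq (GRCm38.p6) and end at the base before the first transcript that GENCODE or RefSeq annotates. All are written 5′ to 3′ on the strand of the gene, with capitals for CTGGGAA, the core of the IL-6 response element of acute-phase genes, which the *Fga* stretch does not hold.
Fgg, chr3:83007474-83007723, plus strand: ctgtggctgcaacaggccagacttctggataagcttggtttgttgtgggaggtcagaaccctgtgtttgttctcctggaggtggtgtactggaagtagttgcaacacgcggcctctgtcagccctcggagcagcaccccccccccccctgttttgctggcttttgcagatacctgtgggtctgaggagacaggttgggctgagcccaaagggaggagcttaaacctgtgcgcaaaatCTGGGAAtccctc
Fga, chr3:83025903-83026075, plus strand: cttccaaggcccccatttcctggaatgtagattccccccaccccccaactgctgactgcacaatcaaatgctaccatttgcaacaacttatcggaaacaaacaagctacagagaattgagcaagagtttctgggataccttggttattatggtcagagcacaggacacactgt
Fgb, chr3:83049864-83050113, minus strand: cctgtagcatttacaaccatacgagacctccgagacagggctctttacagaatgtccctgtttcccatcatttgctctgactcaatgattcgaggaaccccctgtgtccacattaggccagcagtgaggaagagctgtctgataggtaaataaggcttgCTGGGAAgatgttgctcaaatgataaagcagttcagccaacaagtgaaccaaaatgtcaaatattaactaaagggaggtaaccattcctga

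Searched on both strands in the 250 bases before each RefSeq start, CTGGGAA was found at −13 to −7 of *Fgg* and at −91 to −85 of *Fgb*, and in 9.10% of 32851 promoters of the same length. Positions count from the RefSeq start. For *Fga* the GENCODE start lies before it, so the printed stretch holds only the first 173 bases of the searched window. The rest of that window lies within the GENCODE transcript. TTCNNNGAA, the STAT palindrome, was found at −234 to −226 of *Fga* and at −162 to −154 of *Fgb*, against 7.02% of all promoters. TTNNGNAA, a loose C/EBP pattern, was found in *Fga* (−135 to −128) and in *Fgb* (−206 to −199 and −80 to −73), but 36.8% of all promoters hold it. No pattern was in all 3 windows. These are matches of letters and not measured binding.

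The first comparison asked what the disease did to the chains without treatment. In vehicle-treated control males, *Fga* was 24.9, 20.8, 34.3 and 17.8 CPM in replicates 1 to 4, and in vehicle-treated Alport males it was 134, 164, 124 and 165 CPM. The 4 Alport values all lay far above the 4 controls. The log2 fold change (log2FC) was 2.67 ± 0.18 (SE), a 6.37-fold higher level. *Fgg* was 13.5, 14.4, 17.2 and 14.1 CPM in control males and 156, 172, 161 and 172 CPM in Alport males, an 11.9-fold difference (log2FC 3.57 ± 0.09). It was the tightest of the chains, and its groups were again well apart. *Fgb* was the scarcest chain, with 16, 25, 33 and 13 counts (0.850, 1.07, 1.63 and 0.619 CPM) in control males and 349, 434, 494 and 490 counts (14.1, 17.6, 18.9 and 21.3 CPM) in Alport males. It had the largest fold change of the 3 in males, 18.2-fold (log2FC 4.19 ± 0.23), from a base of few counts.

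In females the order of the folds was different. *Fga* was 23.9, 24.7, 26.6 and 21.8 CPM in vehicle-treated controls and 143, 116, 113 and 95.6 CPM in vehicle-treated Alport mice (log2FC 2.31 ± 0.12). *Fgg* was 15.0, 12.9, 18.3 and 12.8 CPM in controls and 137, 109, 113 and 100 CPM in Alport mice, a 7.99-fold difference (SE 0.14 on the log2 scale), the largest of the 3 in this sex. *Fgb* was 4.03, 4.51, 3.80 and 3.61 CPM in controls and 25.3, 19.98, 26.5 and 19.3 CPM in Alport mice (log2FC 2.55 ± 0.13). For each chain in each sex the 4 Alport mice lay above the 4 controls. Such complete separation was common, with all 4 Alport values above in 22.1% and below in 28.5% of the 15286 genes tested in males, and above in 20.7% and below in 23.7% of the 15709 genes tested in females. In edgeR's quasi-likelihood test 51.0% of all genes in males and 45.8% in females passed an adjusted p of 0.05. In bulk tissue, more cells with these mRNAs and more mRNA per cell cannot be told apart.

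**Figure D1:**
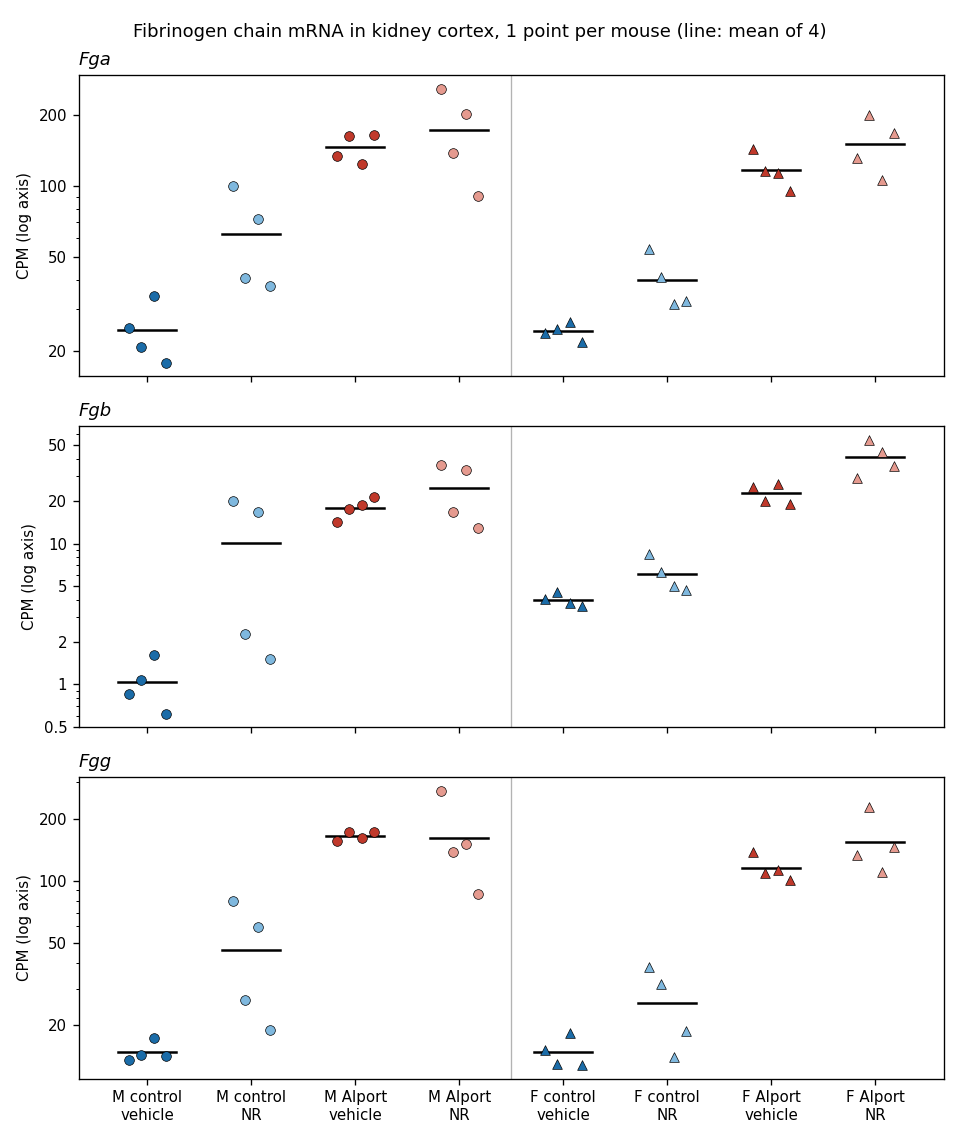
CPM of *Fga*, *Fgb* and *Fgg* on log axes, 1 point per mouse in 8 groups of 4 (circles males, triangles females), with a line at the group mean. Vehicle-treated Alport mice lie above vehicle-treated controls for each chain, vehicle-treated control males have the lowest *Fgb* (0.619–1.63 CPM), and 2 of the 4 NR-treated control males stand high (20.2 and 16.8 CPM of *Fgb*).

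Scaling mattered for the size of these differences and not for their direction. With CPM on total counts instead of TMM, the median of 16469 genes shifted by 0.42 log2 units towards higher in Alport males and by 0.30 in Alport females, and the chains shifted with it (log2 ratio of means 3.01 for *Fga*, 4.54 for *Fgb* and 3.91 for *Fgg* in males, and 2.57, 2.82 and 3.27 in females). Changes of other genes below are on the TMM scale, and a fall smaller than that shift would turn direction on total counts.

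In vehicle-treated controls the sexes differed mostly in *Fgb*. Vehicle-treated control females had 3.61–4.51 CPM and vehicle-treated control males 0.619–1.63 CPM, with no overlap, while *Fga* (21.8–26.6 against 17.8–34.3 CPM) and *Fgg* (12.8–18.3 against 13.5–17.2 CPM) overlapped. Of 16152 genes, 13.4% had all 4 vehicle-treated control females above the 4 males and 16.9% below, so a separation of this kind was not rare. In vehicle-treated Alport mice *Fgb* overlapped, with 19.3–26.5 CPM in females and 14.1–21.3 CPM in males, and so did *Fga* (95.6–143 against 124–165 CPM). *Fgg* did not overlap there, at 100–137 CPM in females and 156–172 CPM in males. The share of all genes separated in this way was not counted for Alport mice. The fold change in males minus that in females was accordingly 1.67 ± 0.27 (SE, log2) for *Fgb*, 0.60 ± 0.16 for *Fgg* and 0.40 ± 0.23 for *Fga* in the fit of the 16 vehicle-treated mice. In the same fit, 46 of 16152 genes (0.285%) passed an adjusted p of 0.05 with a difference of at least 2-fold in edgeR's quasi-likelihood test.

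The proportions of the chains changed with genotype. *Fgb* made up 1.90–3.06% of the chain counts in vehicle-treated control males and 4.65–6.20% in vehicle-treated Alport males, so that the share was higher in all 4. In vehicle-treated females it was 7.82–10.7% in controls and 8.17–10.46% in Alport mice, which overlap. *Fga* counts exceeded *Fgg* counts in all 16 control mice, with log2(*Fgg*/*Fga*) of −1.18 to −0.29. In Alport mice that ratio was −0.43 to 0.37, and in vehicle-treated Alport males it was above 0 in all 4 (0.23, 0.07, 0.37 and 0.06). The mean ratio of *Fga* to *Fgg* counts went from 1.64 ± 0.34 (SD, n = 4) to 0.884 ± 0.089 in vehicle-treated males and from 1.67 ± 0.20 to 1.01 ± 0.05 in vehicle-treated females. Per kilobase of the longest annotated transcript (2587 bases for *Fga*, 3810 for *Fgb* and 1741 for *Fgg*), *Fga* and *Fgg* were level in vehicle-treated control males (9.45 ± 2.77 and 8.49 ± 0.95 CPM per kb, SD, n = 4) and *Fgg* was the higher in vehicle-treated Alport males (94.9 ± 4.53 against 56.6 ± 7.98). On the same scale *Fgb* was 0.273 ± 0.113 in vehicle-treated control males and 1.05 ± 0.10 in vehicle-treated control females, below both other chains in each group. The assembled protein holds its chains in equal numbers, and protein was not measured here.

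**Figure D2:**
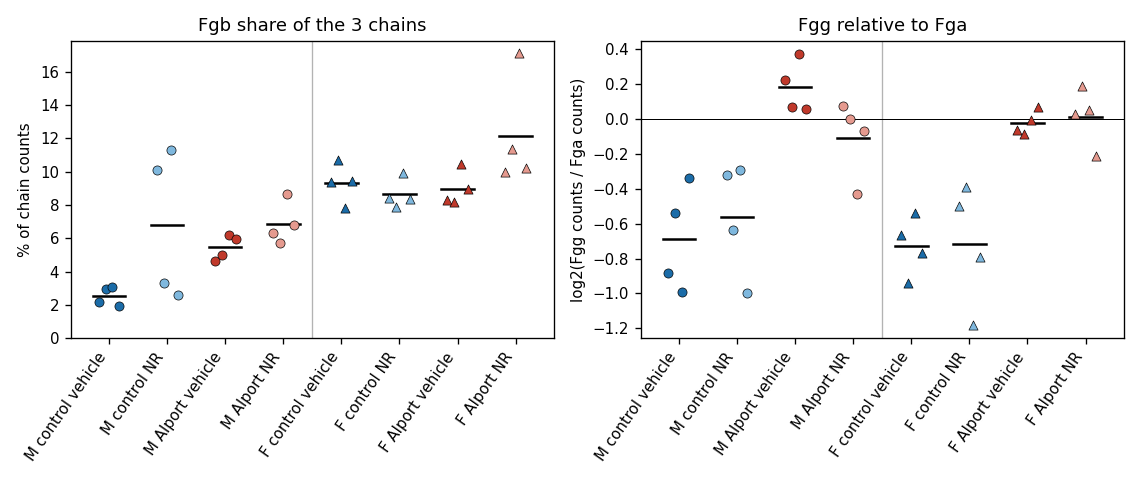
Left, *Fgb* as a percentage of the counts of the 3 chains, and right, log2 of the ratio of *Fgg* to *Fga* counts, 1 point per mouse (circles males, triangles females) with lines at the means of 4. The *Fgb* share is lowest in vehicle-treated control males (1.90–3.06%), and the ratio is −1.18 to −0.29 in controls and −0.43 to 0.37 in Alport mice.

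The chains mostly rose and fell together from mouse to mouse. Over the 32 mice, Pearson's r of log2 CPM was 0.986 for *Fga* with *Fgg*, 0.908 for *Fga* with *Fgb* and 0.901 for *Fgb* with *Fgg*. After subtraction of the group means it was 0.892, 0.811 and 0.824. These r values are descriptions over mice that share genotype, diet and scaling, and no p-value is given for them. The NR-treated control males had the widest spread of *Fgb* (coefficient of variation 95.1%) and weigh heavily in the later values. The r without that group was not computed. Replicate 3 of the NR-treated Alport females had the lowest *Fga* and *Fgg* of its group (106 and 110 CPM). Its *Fgb* was 44.7 CPM, above replicates 1 and 4 (29.3 and 35.7 CPM).

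The next comparisons asked what NR did to the chains. In NR-treated control males, *Fga* was 99.6, 40.8, 72.5 and 37.8 CPM and *Fgg* was 79.8, 26.3, 59.3 and 19.0 CPM, each above all 4 vehicle-treated controls (log2FC 1.37 ± 0.32 and 1.65 ± 0.39, SE). *Fgb* was 20.2, 2.28, 16.8 and 1.51 CPM, a split in which replicates 1 and 3 reached the Alport range and replicate 4 lay within the range of vehicle-treated males (log2FC 3.30 ± 0.81). Replicates 1 and 3 are also the mice whose *Col4a3* lay in the Alport range, and of the 14696 genes tested 7.35% had all 4 NR-treated mice above and 6.01% below. Without these 2 mice, a choice made after the values were seen, the log2FC was 0.68 ± 0.22 for *Fga*, 0.85 ± 0.43 for *Fgb* and 0.61 ± 0.16 for *Fgg*. The number of genes past the threshold in this comparison went from 666 (4.53%) to 96.

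In NR-treated control females, *Fga* was 53.9, 41.3, 31.5 and 32.4 CPM and *Fgb* was 8.46, 6.24, 5.004 and 4.64 CPM, both above all 4 vehicle-treated females (log2FC 0.70 ± 0.15 and 0.60 ± 0.19). *Fgg* was 38.2, 31.5, 13.9 and 18.7 CPM and overlapped with them (log2FC 0.79 ± 0.25). Of 14951 genes, 8.53% had all 4 NR-treated control females above and 6.08% below, and 6.18% passed the threshold (3.91% higher and 2.27% lower).

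In Alport males each chain overlapped between NR and vehicle, and its spread was wider with NR. *Fga* was 259, 137, 202 and 90.8 CPM, *Fgb* 36.0, 16.7, 33.3 and 12.9 CPM and *Fgg* 273, 137, 150 and 86.6 CPM in NR-treated Alport males. For *Fga* and *Fgb*, replicates 1 and 3 were above and replicate 4 was below every vehicle-treated Alport male, with replicate 2 inside their range. The log2FC was 0.22 ± 0.28, 0.45 ± 0.31 and −0.05 ± 0.29. Of 15500 genes, 1.97% had all 4 NR-treated Alport males above and 1.45% below. None passed the threshold in this comparison in edgeR, with 785 at an unadjusted p under 0.05, and DESeq2 called 62 and limma-voom 0. Leaving out 1 mouse at a time gave −0.04 to 0.43 for *Fga* and −0.42 to 0.16 for *Fgg*, the lowest without NR-treated replicate 1 and the highest without NR-treated replicate 4.

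In Alport females, *Fgb* was 29.3, 54.8, 44.7 and 35.7 CPM with NR, above all 4 vehicle-treated mice (log2FC 0.86 ± 0.19), where 5.14% of 15712 genes had all 4 NR-treated mice above and 4.05% below. *Fga* was 131, 200, 106 and 168 CPM (log2FC 0.38 ± 0.19) and *Fgg* was 133, 228, 110 and 145 CPM (log2FC 0.43 ± 0.20), both overlapping with vehicle. In this comparison 75 genes (0.477%) passed the threshold. The NR effect in Alport males minus that in Alport females was −0.14 ± 0.36 for *Fga*, −0.39 ± 0.39 for *Fgb* and −0.46 ± 0.37 for *Fgg*. For that difference 0 of 16189 genes passed the threshold in edgeR, with 363 at an unadjusted p under 0.05 and 1 called by DESeq2.

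**Figure D3:**
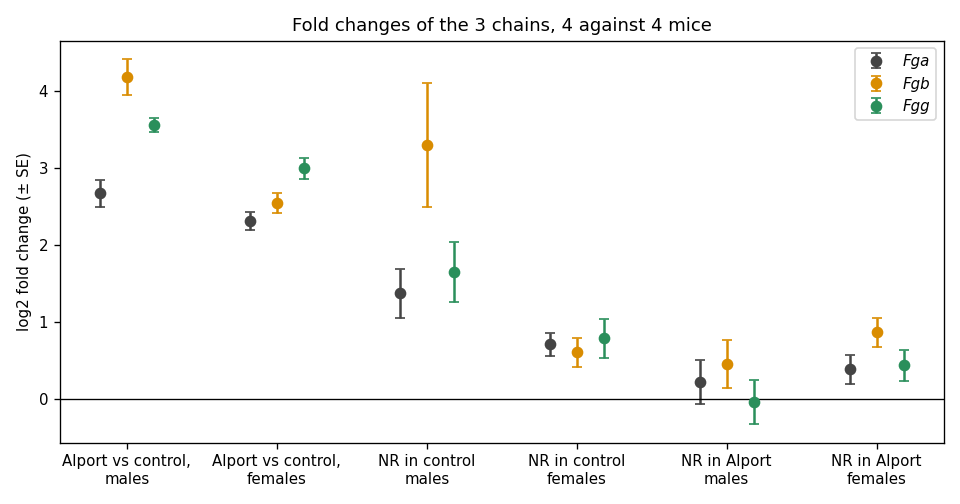
log2 fold change (± SE) of the 3 chains in 6 comparisons of 4 against 4 mice, with a line at 0. The differences between genotypes run from 2.31 to 4.19, those of NR in control mice from 0.60 to 3.30 and those of NR in Alport mice from −0.05 to 0.86.

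Expression of liver genes was examined beside the chains, since hepatocytes are the main source of these mRNAs. *Alb*, the albumin gene and the defining hepatocyte marker, went the other way. It was 9.19–13.4 CPM in vehicle-treated control males and 3.57–5.65 CPM in vehicle-treated Alport males (log2FC −1.27, adjusted p = 7e-05), and fell in females as well (log2FC −1.43, adjusted p = 0.00152). *Serpina3k* had 0 counts in all 32 mice, and *Cps1*, *Tat* and *Ahsg* had 0 counts in 26, 23 and 22 mice with at most 6 counts in any. The summed level of the 21 hepatocyte markers was 120–391 CPM in vehicle-treated control males and 112–264 in vehicle-treated Alport males, and 145–239 and 162–374 in females, so these groups overlapped in both sexes. With NR the sum was 350–591 CPM in control males, 329–428 in control females, 398–429 in Alport males and 108–401 in Alport females, and its part in the chains' levels was not tested. Most of that sum was *Serpina1a* and *Serpina1d*, members of a family of near-identical α1-antitrypsin copies whose counts are uncertain. Of the 13 hepatocyte markers tested in males, 1 rose and 3 fell, against 26.8% of all genes higher and 24.2% lower at the threshold, and of 12 tested in females 3 rose and 2 fell, against 24.0% and 21.8%. *Serpina1b* rose in both sexes (log2FC 2.19 and 3.78, adjusted p = 0.00154 and 3.52e-05). The 10 platelet markers summed to 2.48–6.68 CPM in every mouse. *Pf4*, a platelet granule chemokine at 1–40 counts, was the one that rose in both sexes (log2FC 2.17 and 2.49, adjusted p = 0.00146 and 0.00103). Erythroid genes fell in vehicle-treated Alport mice, 5 of 5 in each sex (*Hbb-bt* −1.66 and −1.16, adjusted p = 0.000358 and 0.0162).

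**Figure D4:**
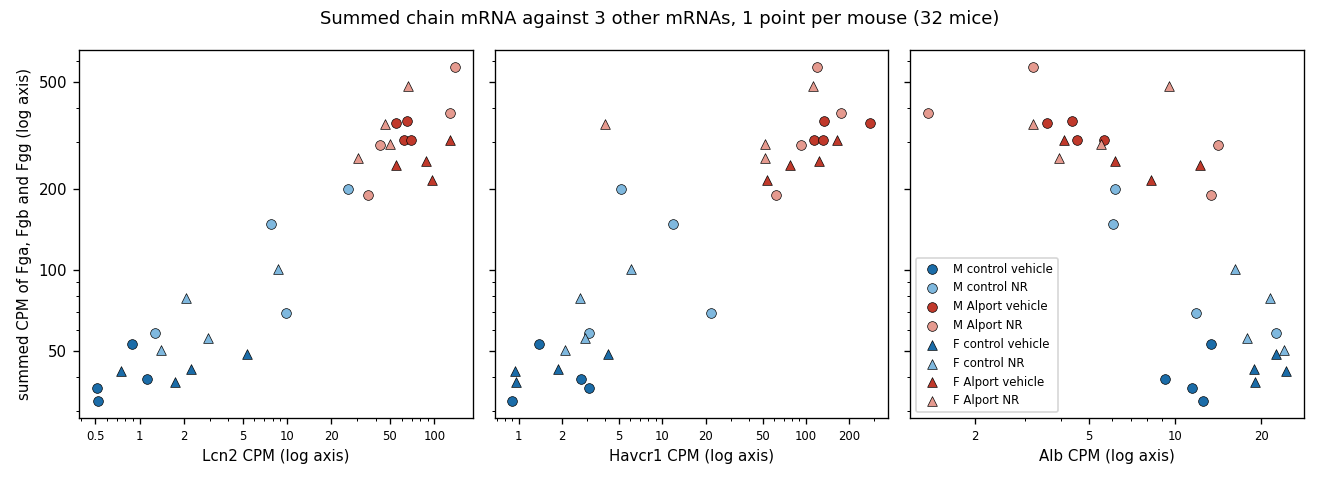
Summed CPM of *Fga*, *Fgb* and *Fgg* against the CPM of *Lcn2*, *Havcr1* and *Alb*, all on log axes, with 1 point for each of 32 mice (circles males, triangles females). The sum follows *Lcn2* and runs against *Alb*, and 1 NR-treated Alport female has *Havcr1* of 3.97 CPM with chain levels inside the Alport range.

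The neighbours on chromosome 3 were examined in the same way. *Plrg1*, which encodes a splicing factor and begins 5.659 kb beyond *Fgb*, did not pass the threshold in either sex (log2FC −0.01, adjusted p = 0.963 in males, and 0.03, adjusted p = 0.772 in females). *Lrat*, which encodes the retinol esterifying enzyme and lies 103.751 kb before *Fgg*, fell in both (log2FC −0.69, adjusted p = 0.0235, and −0.84, adjusted p = 0.00561). The other 2 protein-coding genes within 250 kb, *Rbm46* and *Dchs2*, had at most 11 and 15 counts in any mouse.

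Upstream of fibrinogen synthesis, the genes for induction of acute-phase proteins were mostly higher in vehicle-treated Alport mice. Of 17 tested in each sex, 13 rose and 2 fell in males and 13 rose and 2 fell in females. All genes gave 26.8% higher and 24.2% lower in males and 24.0% and 21.8% in females. Not every receptor gene was higher. Over both sexes and treatments, *Lifr*, the LIF receptor gene, had a median of 88.2 CPM in control and 65.5 CPM in Alport mice. *Il11ra1* had 74.1 and 50.4 CPM, and *Jak2* 45.2 and 42.8 CPM. *Socs3*, the feedback inhibitor that STAT3 induces, went from 1.58–2.43 CPM to 22.9–36.6 CPM in males (log2FC 3.85, adjusted p = 6.84e-08) and rose by 2.91 in females (adjusted p = 3.11e-05). The cytokine gene *Lif* (log2FC 4.23 and 3.92, adjusted p = 6.96e-06 and 6.18e-05) and the receptor gene *Osmr* (2.85 and 2.29, adjusted p = 1.55e-06 and 3e-05) led with it, and *Clcf1*, another cytokine of the family, rose by 2.24 and 1.73 (adjusted p = 1.05e-05 and 0.000114). *Il6ra* (1.58 and 1.11, adjusted p = 1.03e-05 and 0.000795), *Stat3* itself (1.20 and 0.97, adjusted p = 6.28e-07 and 4.62e-05), *Il6st*, the shared receptor gp130 (0.31 and 0.33, adjusted p = 0.0119 and 0.00486), and *Cebpd* (1.58 and 0.66, adjusted p = 8.51e-06 and 0.00582) rose too. *Cebpb* did not pass (0.42 and 0.55, adjusted p = 0.426 and 0.376). *Il6* was too scarce to test, with 0 counts in 13 mice and at most 14 counts in any.

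The liver and kidney transcription factors went the other way, with 5 of 9 tested in males and 5 of 10 in females lower and none higher. Among all genes, 24.2% were lower and 26.8% higher in males, and 21.8% and 24.0% in females. *Hnf4a* (−0.83 and −0.81, adjusted p = 0.000403 and 0.000267), *Hnf4g* (−1.16 and −0.69, adjusted p = 0.000195 and 0.0164), *Nr1h4*, the bile acid receptor (−0.95 and −0.52, adjusted p = 0.00028 and 0.000516), and *Ppara*, the regulator of fatty acid oxidation (−0.94 and −1.14, adjusted p = 5.32e-05 and 8.69e-05), fell in both sexes. Proximal tubule markers fell in 12 of 12 in males and in 11 of 12 in females, where *Slc7a13* rose by 0.66 (adjusted p = 0.0117). *Slc6a19*, a neutral amino acid transporter, fell by 1.33 and 1.46 on the log2 scale (adjusted p = 2.78e-05 and 0.000328), and *Cubn*, the cubilin receptor, by 1.18 and 1.07 (adjusted p = 5.85e-06 and 0.000181).

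Other acute-phase proteins were higher in most cases, 15 of 18 tested in males and 13 of 17 in females, with none lower. For all genes the shares were 26.8% higher and 24.2% lower in males and 24.0% and 21.8% in females. *Lcn2* (lipocalin 2) was 0.513–1.12 CPM in vehicle-treated control males and 55.2–69.4 CPM in vehicle-treated Alport males (log2FC 6.48 and, in females, 5.21, adjusted p = 9.66e-10 and 2.52e-05). *C3*, the central complement component, rose by 5.86 and 4.77 (adjusted p = 1.22e-10 and 7.09e-06), *Serpina3n*, an inhibitor of serine proteases, by 6.92 and 4.50 (adjusted p = 2.61e-08 and 0.000219) and *Il1rn*, the interleukin-1 receptor antagonist, by 5.08 and 4.09 (adjusted p = 1.33e-06 and 0.000745). *Hp* (haptoglobin) rose by 3.43 and 3.40 (adjusted p = 0.000277 and 6.42e-05) from a low base, and *Saa1* was not tested, with a median of 4.5 counts.

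Of the coagulation factors, which act before fibrin forms, 4 rose and 5 fell of 13 tested in males and 3 rose and 4 fell of 13 in females. All genes gave 26.8% and 24.2% in males and 24.0% and 21.8% in females, and the shares of the factors in females were near those. *F2*, the prothrombin gene, had 2–54 counts in all mice and was tested in this comparison in females alone (log2FC 0.38, adjusted p = 0.629). *F3*, tissue factor, rose by 1.08 and 1.10 (adjusted p = 1.17e-05 and 0.000454). *F13a1*, the fibrin crosslinking subunit, rose by 2.20 and 1.32 (adjusted p = 0.000573 and 0.0312), and *F13b*, its carrier subunit, fell by 1.25 and 1.36 (adjusted p = 3.93e-05 and 0.000151). *Klkb1*, plasma prekallikrein, fell by 1.40 and 1.08 (adjusted p = 3.19e-05 and 0.0007). Among inhibitors of coagulation, 5 rose and 2 fell of 8 tested in males and 4 rose and 1 fell of 9 in females, led by *Serpina10* (5.69 and 4.53, adjusted p = 7.71e-09 and 1.47e-05), the protein Z-dependent inhibitor. *Pros1*, protein S (2.03 and 1.59, adjusted p = 3.18e-07 and 1.37e-05), *Procr*, the endothelial protein C receptor (1.69 and 1.04, adjusted p = 0.000846 and 0.00697), and *Thbd*, thrombomodulin (1.39 and 1.01, adjusted p = 1.44e-06 and 0.000128), rose with it.

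Fibrin is removed by plasmin, whose precursor gene *Plg* was nearly silent here (0–27 counts). Of the fibrinolysis genes, 7 rose and 1 fell of 9 tested in males and 7 rose and 1 fell of 10 in females. The shares of all genes were 26.8% higher and 24.2% lower in males and 24.0% and 21.8% in females. *Serpine2*, an inhibitor of serine proteases, rose by 2.82 and 1.92 (adjusted p = 3.7e-08 and 3.86e-05). *Plat*, tissue plasminogen activator, rose by 1.22 and 0.68 (adjusted p = 1.52e-05 and 0.000183), *Plaur*, the urokinase receptor, by 2.01 and 1.63 (adjusted p = 4.56e-05 and 3.75e-05) and *Anxa2*, a plasminogen docking protein, by 2.34 and 1.93 (adjusted p = 5.32e-08 and 2.83e-05). *Plau*, urokinase, did not pass (−0.42 and −0.16, adjusted p = 0.109 and 0.592).

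Receptors that bind fibrinogen or fibrin were higher in 10 of 11 in both sexes. Beside this and the marker counts below, 26.8% of all genes were higher in males and 24.0% in females. *Itga2b*, the platelet integrin subunit, fell in males (−0.40, adjusted p = 0.0485) and did not pass in females (−0.15, adjusted p = 0.498). *Itgam* and *Itgb2*, which form the leukocyte integrin Mac-1, rose by 3.49 and 2.95 in males (adjusted p = 5.85e-07 and 4.64e-08) and by 2.83 and 2.33 in females (adjusted p = 3.75e-05 and 0.000291), *Itgax* by 3.48 and 2.59 (adjusted p = 9.06e-07 and 0.0002), and *Icam1* by 2.28 and 2.10 (adjusted p = 2.59e-08 and 9.27e-06). *Itgav* (0.39 and 0.46, adjusted p = 0.013 and 0.0013) and *Itgb3* (2.03 and 1.57, adjusted p = 3.42e-06 and 9.46e-05), which pair as the vitronectin receptor, also rose. Leukocyte markers rose beside them, 14 of 14 tested in males and 12 of 14 in females, and their summed level was 84.2–105 CPM in vehicle-treated control males and 543–751 CPM in vehicle-treated Alport males. The part of these cells in the receptor genes was not tested. Fibroblast markers rose in 9 of 9 in both sexes, endothelial markers in 6 of 7 in males and 3 of 7 in females, and podocyte markers in 5 of 5 and 4 of 5. Of 14 tested genes with a fibrinogen-like domain, 7 rose and 1 fell in males and 4 rose and 2 fell in females, and the female counts were near the shares of all genes (24.0% higher and 21.8% lower). *Fgl2*, which encodes a prothrombinase, rose by 3.05 and 2.54 (adjusted p = 2.54e-07 and 3.57e-05), while *Fgl1*, a liver relative, did not pass (−0.09 and −0.30, adjusted p = 0.787 and 0.316).

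**Figure D5:**
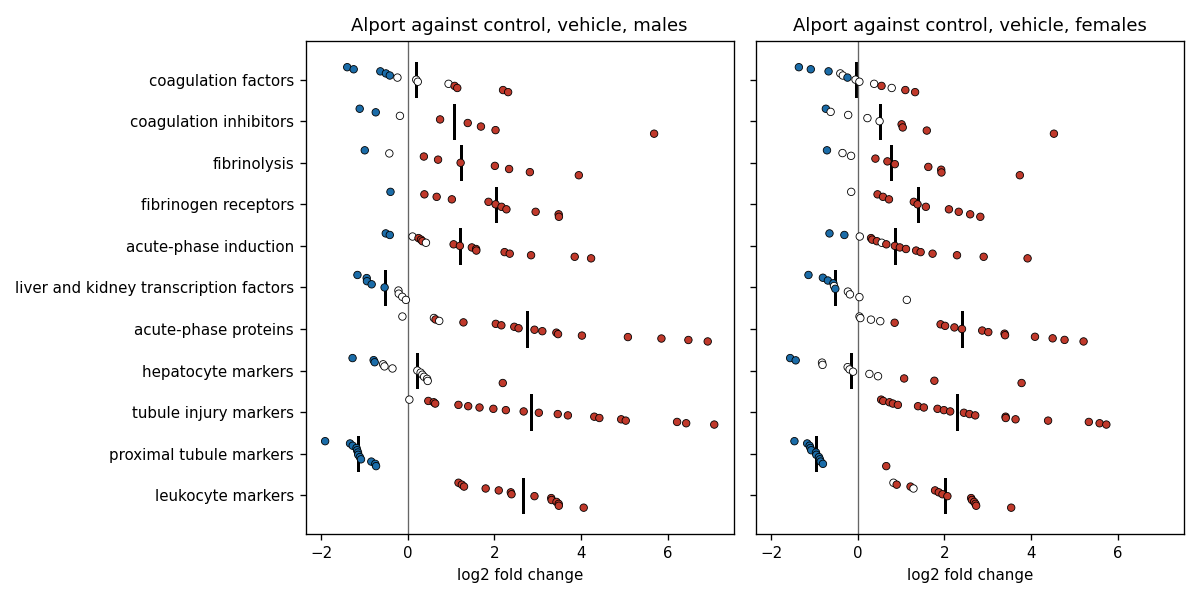
log2 fold change of each tested gene of 11 lists in vehicle-treated Alport against control mice, males left and females right, with red for genes past the threshold and higher, blue for past and lower and white for not past, and a bar at the list median. Acute-phase, receptor, tubule injury and leukocyte genes lie mostly to the right and transcription factors and proximal tubule markers to the left, while coagulation factors lie on both sides with medians of 0.20 in males and −0.05 in females.

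Tubule injury markers were higher in 19 of 20 in males and 20 of 20 in females, against 26.8% and 24.0% of all genes. *Havcr1*, which encodes the tubule injury protein KIM-1, rose by 6.43 and 5.74 (adjusted p = 2.24e-07 and 2.63e-05), and *Timp1* (7.08 and 5.33, adjusted p = 2.12e-08 and 1.28e-05), *Krt20* (6.22 and 5.58, adjusted p = 2.72e-07 and 6.26e-06) and *Vcam1* (5.03 and 4.39, adjusted p = 6.07e-09 and 1.37e-05) were similar. The fibrinogen chains did not track *Havcr1* in every mouse. Replicate 4 of the NR-treated Alport females had 106 counts of *Havcr1* (3.97 CPM, within the control range of 0.904–21.8 CPM) with 168 CPM of *Fga* and 145 CPM of *Fgg*. Among NR-treated control males, replicate 1 had the highest *Fga* with 5.13 CPM of *Havcr1*, and replicate 2 had the highest *Havcr1* (21.8 CPM) with 40.8 CPM of *Fga*.

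Likeness to the chains was measured for each of 16466 genes as Pearson's r of log2 CPM. The reference was the plain mean log2 CPM of the 3 chains, which were not standardized. *Fgb* therefore weighed most, with a range over the 32 mice of 6.28 log2 units against 3.86 for *Fga* and 4.40 for *Fgg*. Over the 32 mice, the 10 most like genes were *Lcn2* (0.952), *Socs3* (0.952), *F2r* (0.949), *C3* (0.947), *Litaf* (0.947), *Krt19* (0.947), *Tnfrsf1a* (0.943), *Pros1* (0.943), *Sprr1a* (0.942) and *Nupr1* (0.941). *F2r* encodes the thrombin receptor PAR1. These values follow genotype to a large extent, and *Havcr1* was at 0.860 and *Alb* at −0.743. With group means subtracted, the 10 most like were *Lpcat4* (0.840), *Klf5* (0.793), *Fosl2* (0.774), *P3h4* (0.768), *Dbndd2* (0.766), *Krt18* (0.762), *Csrp1* (0.755), *Zfp385a* (0.745), *Clu* (0.745) and *Cln3* (0.743), none of them among the first 10. On that scale *C3* stayed at 0.740 and *Lcn2* at 0.711, while *Havcr1* dropped to 0.243. The values on this scale lean on the NR-treated control males, where *Fgb* spread most (coefficient of variation 95.1%). In that group replicates 1 and 3 stood high and replicates 2 and 4 low. No ranking without that group was made. By Spearman's rho, 3 of the first 10 and 4 of the second 10 were again among the top 10. The median r over 16466 genes was −0.04 over mice and 0.018 with group means subtracted. In the same order, list medians were 0.850 and 0.400 for tubule injury markers and 0.837 and 0.339 for acute-phase proteins. Fibroblast markers had 0.835 and 0.241, fibrinogen receptors 0.824 and 0.129, and podocyte markers 0.819 and 0.200. Proximal tubule markers had −0.765 and −0.479.

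With NR, genes of these lists passed the threshold mainly in control mice. In control males, *C3* (log2FC 3.19, adjusted p = 0.0117), *Lcn2* (3.90, adjusted p = 0.0253), *Socs3* (1.88, adjusted p = 0.0395), *Osmr* (1.26, adjusted p = 0.0352), *Pros1* (0.81, adjusted p = 0.0301) and *Serpina10* (2.13, adjusted p = 0.0494) rose, against a background of 3.07% of genes higher and 1.46% lower. Members of the same lists also fell past the threshold in edgeR, *Cfb* (−0.35, adjusted p = 0.0453) and *Proc* (−0.59, adjusted p = 0.0314). Acute-phase proteins had 3 higher and 1 lower of 13 tested, and coagulation inhibitors 3 and 1 of 8. Acute-phase induction genes had 2 and 0 of 16, and hepatocyte markers 2 and 1 of 13. Tubule injury markers rose in 5 of 20, endothelial markers in 6 of 7, fibroblast markers in 4 of 9 and leukocyte markers in 2 of 11. The summed injury markers were 1383–2917 CPM against 1165–1398 CPM with vehicle and the summed leukocyte markers 94.8–191 against 84.2–105 CPM, and the part of these cells in the acute-phase genes was not tested. Without replicates 1 and 3, *C3* still passed (1.85, adjusted p = 0.00475) and the other 5 did not, with 2 NR-treated mice left. Their log2FC was then 2.43 for *Serpina10*, 2.86 for *Lcn2*, 1.20 for *Socs3*, 0.75 for *Osmr* and 0.49 for *Pros1* (adjusted p = 0.136, 0.112, 0.243, 0.251 and 0.160). In control females, where 3.91% of genes were higher and 2.27% lower, *C3* rose as well (1.84, adjusted p = 0.000882), and erythroid markers rose in 5 of 5. Acute-phase proteins had 3 higher and 0 lower of 12 tested, with *Cp* (0.57, adjusted p = 0.00635) and *Mt1* (0.46, adjusted p = 0.0114) beside *C3*. Hepatocyte markers had 3 and 0 of 13, acute-phase induction genes 0 and 0 of 16, and coagulation inhibitors 0 and 0 of 8. There, 0 of 20 tubule injury, 0 of 7 endothelial, 0 of 9 fibroblast and 0 of 12 leukocyte markers passed. In Alport females, *Apoh* (2.16, adjusted p = 0.0257), which encodes a phospholipid-binding plasma protein, was the one gene of the lists past the threshold, and in Alport males there was none.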

How the data were processed

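Poly(A) RNA of kidney cortex from 32 mice was sequenced, and per the paper's methods the authors used BioJupies. The submitters' notes name the build mm10. The aligner, its version and strand use are not given in the sources used here. Raw counts per gene symbol, as deposited by the authors, were analysed. A second deposited table holds log10 values that can be recomputed from these counts and was not used further. Members and gene lists were chosen with earlier results of these data known.

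Tests used edgeR 4.0.16 under R 4.3.3 (quasi-likelihood, filterByExpr minimum count 10, TMM), on 8 mice per comparison or 16 for interactions, with Benjamini-Hochberg adjustment over all genes tested and a threshold of 0.05. For the difference of the Alport effect between sexes, a log2 size of 1 was required as well. Levels are CPM, and log2 CPM used a prior count of 2. In simulated counts for Alport against control males, 86 of 100 changes of 2-fold and 99 of 100 of 4-fold were found, against 37 and 91 of 100 for NR in Alport males and 58 and 81 of 100 for the sex-genotype interaction. False calls were 16, 6 and 6 in that order. Each simulation changed 200 genes, as many up as down, while 51.0% of genes passed the threshold between Alport and control males. It therefore did not test TMM scaling or false calls where that many genes change. The simulated interaction was called without the log2 size limit, so its shares do not give the power of the limited calls. The scarcest values were 13–33 counts of *Fgb* in vehicle-treated control males. In 48 pairs of mice within groups, counts differed beyond sampling noise (lowest chi-square/df 7.56).

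Genes were named by a rule: the chains, 26 pathway genes, up to 4 genes of each list with the largest absolute mean log2FC among those past the threshold in both sexes, list genes past it for NR in Alport mice, and the 10 most like the chains on each of 2 measures. Some genes that the rule allows from the cell type lists are given by counts. Some of the pathway genes are not reported here. *Col4a3*, *Col4a4* and the chromosome 3 neighbours were checked besides. *Fgl1*, *Itga2b*, *Slc7a13*, *Lifr*, *Il11ra1*, *Jak2*, *Serpina1a*, *Serpina1d*, *Serpina3k*, *Cps1*, *Tat* and *Ahsg*, and the genes picked for NR in control mice, were named after their values were seen. Alternatives were DESeq2 1.42.0, limma-voom (limma 3.58.1), RLE factors, no filter, 1 fit of all 32 mice, a replicate block, other scalings of CPM, and leaving out each mouse.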

Additional observations from a re-analysis of the deposited data

Results flagged for a closer look

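In vehicle-treated Alport females, the share of *Fgg* in the chain counts was 46.7% in replicate 4, while the other mice of the group were at 44.9% or below, a gap of 0.837 of the range of the group that passes Dixon's critical value. Chance flags about 5% of groups, and this was 1 of 48 looked at. *Col1a2*, a fibrillar collagen and fibroblast marker, had an Alport effect that was higher by 1.14 ± 0.25 (SE, log2) in males than in females (edgeR, adjusted p = 0.0486 in the fit of 16 vehicle-treated mice).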

How the results depend on the processing

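A chain fold change counted as moved when it shifted by the spread between mice (SD within groups) or more. Leaving out 1 of 4 mice can hardly shift it that far, so those refits could not test its stability. Of 390 chain fold changes under alternatives, 387 moved by less than this spread. The other 3 came from leaving out NR-treated control males 1 and 3, a choice made after seeing the data, which gave 0.68 (*Fga*), 0.85 (*Fgb*) and 0.61 (*Fgg*) and 96 genes past the threshold. With CPM on total counts, mean levels moved to 140 (*Fga*), 27.3 (*Fgb*) and 138 (*Fgg*) in vehicle-treated Alport females, and for *Fgg* to 12.6 in vehicle-treated control males and 188 in vehicle-treated Alport males. By Spearman's rho, 3 and 4 of the 10 most like genes were shared. Of 476 list counts 467 stayed within 1.5 times, and of 2534 values of other genes 203 lost and 3 gained the threshold. *F2* in females ran from −0.40 (without Alport replicate 2) to 0.64 and *Plau* in females from −0.33 to 0.053 (without control replicate 3), neither past the threshold.

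Counts of genes past the threshold moved more, and the cause was not tested. DESeq2 gave 62 and 728 for NR in Alport males and females, 1654 and 1493 in control males and females, 115 for the sex-genotype difference and 1 for the sex-NR difference. A fit of all 32 mice gave 88 and 253 for NR in Alport males and females, 18 in control females and 4 for the sex-genotype difference, which had 28 in limma-voom and 86 with no fold limit. With no filter NR in Alport females had 116. Leaving out 1 mouse at a time gave 6872–7965 (Alport males), 6049–7652 (Alport females), 0–380 for NR in Alport males (380 without NR-treated replicate 1), 9–166 in Alport females, 74–1886 in control males (74 without vehicle replicate 1, 1886 without NR-treated replicate 4), 395–809 in control females, 16–59 for the sex-genotype difference and 0 for the sex-NR difference.

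Equal replicate numbers were not found to pair mice, with r of deviations from −0.17 to 0.26 and over 0.1 in 5 of 24 pairs. With the replicate block, 309 and 371 genes passed for NR in control males and females, against 666 and 924 without it, and the counts of the other comparisons stayed within 1.5 times.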
